A study of Mus musculus with 6 samples.

Results

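The genes described here are 10 adipogenic regulators and lipid storage genes: the transcription factor genes Pparg, Cebpa, Cebpb, Cebpd and Zfp423, and the lipid genes Lpl, Cd36, Fabp4, Plin2 and Adipoq. They were chosen by name, as the rows of the count tables whose gene identifiers carry these symbols in the GENCODE vM21 mouse annotation. They are 10 of 55536 annotated genes, and all 10 were among the 15903 genes with enough reads to be tested. The series holds bulk RNA-seq of stromal cells sorted from injured quadriceps muscle of tdTomato p16 reporter mice on the C57Bl/6 background, as a model of the fibrosis that surrounds a foreign body. In this line the red fluorescent protein tdTomato reports expression of p16, a cell cycle inhibitor encoded by Cdkn2a and widely used as a marker of senescent cells.

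The p16+ group was 3 libraries of tdTomato-positive cells, and the p16- group was 3 libraries of tdTomato-negative cells. All 6 libraries came from cells gated as CD45-CD31-CD29+, that is without the leukocyte and endothelial surface antigens and with integrin beta-1. Muscle was resected from both quadriceps at 10 weeks of age, the animals received carprofen at 5 mg/kg, and tissue was taken 1 or 6 weeks later. The defect held 30 mg of (poly)caprolactone particles, decellularized matrix or 50 uL of saline. The sources used here do not give the filler and the harvest time of these 6 libraries, nor whether the replicates are separate animals, so the p-values measure the spread between these libraries, which may be technical.

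Adipocytes arise from mesenchymal progenitors through a cascade in which C/EBP beta and C/EBP delta act early, and PPAR gamma and C/EBP alpha then switch on and maintain the lipid storage programme. Zfp423 encodes a zinc finger factor that marks and commits preadipocytes. In skeletal muscle the resident fibro-adipogenic progenitors can form either matrix-producing fibroblasts or adipocytes, and fatty infiltration is a known outcome of failed repair.

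The libraries held 37115120, 37861713 and 35253406 counted read pairs in p16+ replicates 1, 2 and 3, and 39103909, 38967251 and 36507067 in p16- replicates 1, 2 and 3. Cdkn2a averaged 7.82 ± 0.961 CPM (counts scaled to library size and composition) in p16+ cells and 2.13 ± 0.329 CPM in p16- cells (SD, n = 3 each). With a log2 fold change of 1.88 (edgeR adjusted p = 2e-05), the sorted fractions differed in this gene in the labelled direction. The gene was also read in p16- cells. Because counting was per gene, the transcripts of Cdkn2a were not separated. The CD29 gene Itgb1 averaged 891 CPM in p16+ cells, against 758 CPM in p16- cells. The genes of the antigens used for exclusion were low: Ptprc (CD45) averaged 7.77 CPM in the p16+ group, against 4.89 CPM in the p16- group, and Pecam1 (CD31) 6.73 CPM in the p16+ group, against 3.34 CPM in the p16- group. Over all genes tested, 2660 of 15903 (16.7%) passed an adjusted p of 0.05, of which 1382 (8.69%) were higher and 1278 (8.04%) lower in p16+ cells. With library sizes alone in place of composition scaling, 1059 were higher and 1882 lower.

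Of the 10 genes, 5 fell in p16+ cells (Pparg, Cebpd, Lpl, Cd36 and Plin2), 0 rose and 5 did not pass the test (Cebpa, Cebpb, Zfp423, Fabp4 and Adipoq). The share lower over all genes tested was 8.04%. At an unadjusted p under 0.05 in edgeR 6 were lower and 0 higher, and DESeq2 also called 6 lower and 0 higher. The median log2 fold change of the 10 was -0.42, against -0.01 over all genes tested, and 9 of the 10 values were negative. In 4 of the 10 all p16+ libraries lay below all p16- libraries. Over all genes tested this held for 16.5%, and groups that did not overlap in either direction for 33.1%. Leaving out replicate 1 or replicate 3 of the p16- group lowered the count of fallen genes to 3. In bulk RNA of sorted cells, fewer cells of a type and less RNA per cell cannot be told apart.

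**Figure D1:**
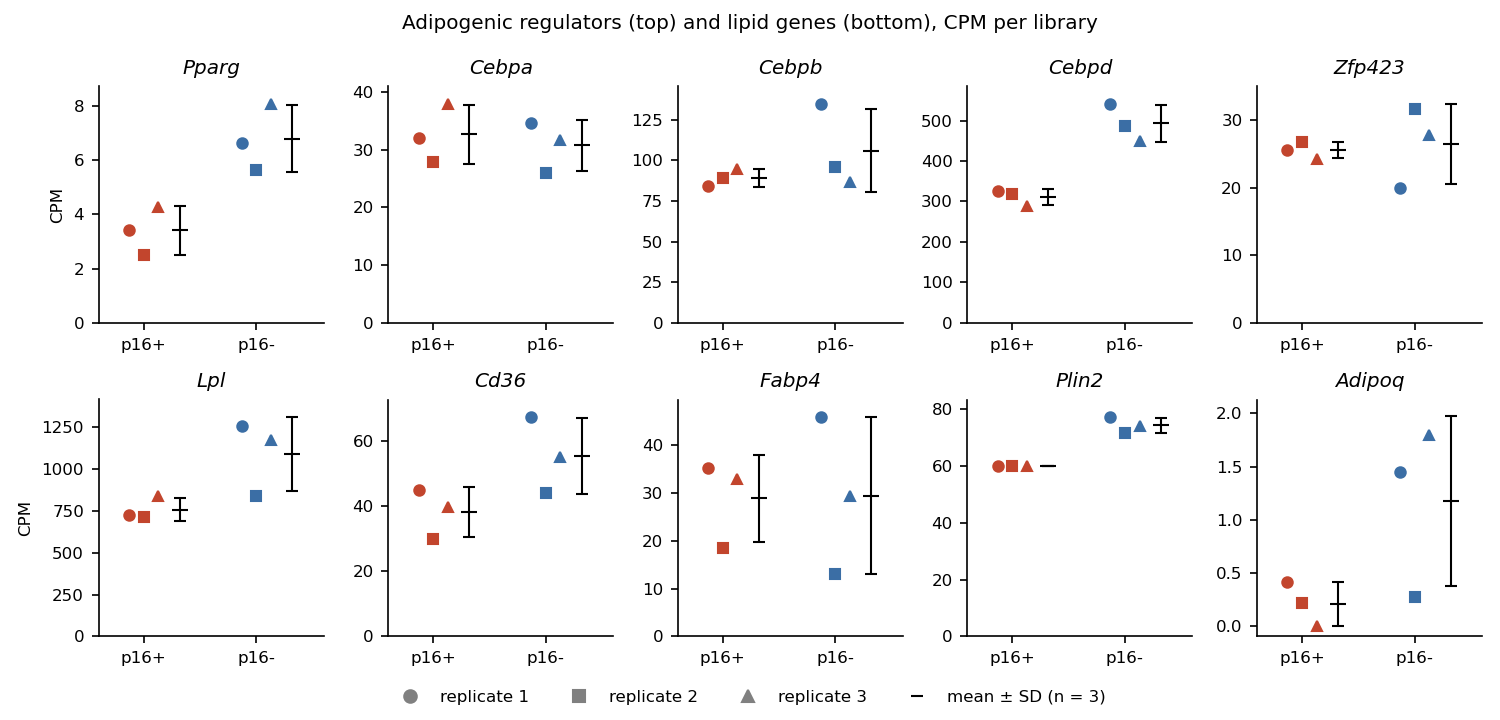
Expression of the 10 genes in CPM (vertical axes, from 0) in the 3 p16+ libraries, left, and the 3 p16- libraries, right, of each panel; points are libraries and bars are mean ± SD. For Pparg, Cebpd, Lpl and Plin2 the p16+ points all sit below the p16- points, and for Fabp4 the p16- points spread from 13.0 to 45.8 CPM.

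The upstream windows of the 3 genes that fell and have an entry in the RefSeq promoter table are printed. They hold RefSeq start sites of these genes, and the motifs of the regulators described here can be read in them. Counts per gene do not show which start gave the transcripts that were lower. Each window runs from 250 bases before to 50 bases after an annotated start in GRCm38.p6. All run 5′ to 3′ on the gene's own strand. Capitals mark matches to a C/EBP consensus, TTNNGNAA, or to the nuclear receptor core hexamer, AGGTCA, on either strand, so that AGGTCA on the opposite strand reads TGACCT.
Pparg, the first start, chr6:115360894-115361193, plus strand: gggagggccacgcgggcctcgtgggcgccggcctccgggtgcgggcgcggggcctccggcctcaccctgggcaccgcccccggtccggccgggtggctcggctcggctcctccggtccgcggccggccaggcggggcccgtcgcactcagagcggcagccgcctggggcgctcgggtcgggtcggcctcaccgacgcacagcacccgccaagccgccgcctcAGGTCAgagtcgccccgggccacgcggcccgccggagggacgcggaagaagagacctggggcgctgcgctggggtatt
Pparg, the second start, chr6:115362099-115362398, plus strand: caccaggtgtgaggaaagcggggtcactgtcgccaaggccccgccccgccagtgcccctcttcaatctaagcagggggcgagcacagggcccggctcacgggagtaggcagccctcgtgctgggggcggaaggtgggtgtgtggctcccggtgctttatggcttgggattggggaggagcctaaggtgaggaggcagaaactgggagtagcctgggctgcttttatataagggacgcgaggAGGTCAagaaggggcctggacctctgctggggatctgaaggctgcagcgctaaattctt
Pparg, the third start, chr6:115421816-115422115, plus strand: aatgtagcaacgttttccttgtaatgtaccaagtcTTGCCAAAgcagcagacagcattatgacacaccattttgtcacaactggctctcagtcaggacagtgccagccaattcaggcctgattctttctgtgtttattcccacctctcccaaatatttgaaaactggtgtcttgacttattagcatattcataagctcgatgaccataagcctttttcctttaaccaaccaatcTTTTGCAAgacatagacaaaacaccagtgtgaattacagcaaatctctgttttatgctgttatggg
Cd36, chr5:17835847-17836146, minus strand: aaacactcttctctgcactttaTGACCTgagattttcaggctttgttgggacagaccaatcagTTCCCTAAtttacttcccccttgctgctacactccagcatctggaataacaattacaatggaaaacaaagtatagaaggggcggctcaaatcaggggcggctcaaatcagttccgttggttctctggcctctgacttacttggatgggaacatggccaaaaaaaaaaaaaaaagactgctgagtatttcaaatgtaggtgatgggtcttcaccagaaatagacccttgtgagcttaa
Plin2, chr4:86670010-86670309, minus strand: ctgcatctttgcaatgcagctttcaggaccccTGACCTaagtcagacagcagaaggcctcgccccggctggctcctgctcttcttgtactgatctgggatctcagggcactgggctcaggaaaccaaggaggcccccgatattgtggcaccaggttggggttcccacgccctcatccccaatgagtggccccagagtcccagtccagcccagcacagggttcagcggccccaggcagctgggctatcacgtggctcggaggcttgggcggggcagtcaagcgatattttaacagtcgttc

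Among the Pparg starts, the third lies 60922 bases downstream of the first and is that of the adipocyte-selective isoform, whereas the earlier starts give the isoform made in many cell types. The GC content was 80.3% and 62.7% in the windows of the earlier starts and 40.3% in the window of the third. In Pparg the third window held 2 C/EBP matches, beginning 215 and 16 bases before the start, and the first and second windows each held 1 core hexamer, beginning 28 and 9 bases before theirs. The counts are per gene and do not separate these starts. The Cd36 window held a C/EBP match 187 bases and a core hexamer 228 bases before the start, and the Plin2 window held a core hexamer 218 bases before its own. The Cd36 start, at 17835896, lies inside the annotated gene, whose 5′ end on the minus strand is at 17888801. No window covered that end.

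In all, 7 of the 10 genes matched the table, with 10 windows between them. The loose C/EBP consensus occurred in 5 of the 10 windows, in Pparg, Zfp423, Cd36 and Adipoq, and in 40.7% of all 32851 promoter windows of that length. AGGTCA occurred in 5 of the 10 windows, in Pparg, Zfp423, Cd36 and Plin2, and in 16.3% of all windows. The C/EBP palindrome TTGCGCAA was in 0 of the 10 windows and 0.183% of all windows, and the perfect direct repeat of the core hexamer with a spacer of 1 base, the element that PPAR gamma binds with its partner RXR, in 0 of the 10 and 0.0396% of all. These matches describe letters only, and binding was not measured.

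Among the regulators, the largest difference by ratio was in Pparg (ENSMUSG00000000440.12, chromosome 6, 115360951 to 115490399, plus strand), the nuclear receptor gene required for adipocyte formation. Its raw counts were 125, 92 and 147 in p16+ libraries, against 270, 224 and 301 in p16- libraries. Scaled, that is 3.44, 2.50 and 4.29 CPM in p16+ cells, against 6.64, 5.65 and 8.09 CPM in p16- cells. The groups did not overlap, and p16+ replicate 2 was the lowest library. Pparg fell to 0.502 of its p16- level (3.41 ± 0.894 CPM in p16+ and 6.79 ± 1.23 CPM in p16- cells; log2 fold change -0.99, SE 0.24, 95% interval -1.50 to -0.49, edgeR adjusted p = 0.00824). The call was lost without p16- replicate 3, when the adjusted p was 0.0617.

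Cebpd (ENSMUSG00000071637.5, chromosome 16, 15887286 to 15891031, plus strand) encodes C/EBP delta, an early and hormone-responsive member of the cascade that also responds to inflammation. It read 326, 318 and 288 CPM in p16+ libraries, against 542, 487 and 450.2 CPM in p16- libraries. Every p16+ library was below every p16- library by a wide margin relative to the spread within groups. Cebpd fell by 37.0% (311 ± 19.7 CPM in p16+ and 493 ± 46.2 CPM in p16- cells; log2 fold change -0.67, SE 0.09, 95% interval -0.85 to -0.48, adjusted p = 4.88e-05), and it passed in each alternative that was run. Of its exonic length, 15.0% overlaps Spidr on the opposite strand, and the library kit keeps no strand.

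Cebpb (ENSMUSG00000056501.3, chromosome 2, 167688915 to 167690418, plus strand), which encodes the early factor C/EBP beta, read 84.0, 88.9 and 94.6 CPM in p16+ libraries, against 135, 95.8 and 86.9 CPM in p16- libraries. The groups overlapped, and p16- replicate 1 stood above the other 5 libraries. The log2 fold change was -0.25 (SE 0.12, 95% interval -0.51 to 0.02, adjusted p = 0.213), and it was -0.03 without p16- replicate 1. The adjusted p was 0.0442 when no filter on low counts was applied. Opposite-strand overlap with Tmem189 covers 20.7% of its exonic length.

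Cebpa (ENSMUSG00000034957.10, chromosome 7, 35119293 to 35121928, plus strand), which encodes the late factor C/EBP alpha, read 32.1, 27.9 and 38.0 CPM in p16+ libraries, against 34.7, 25.9 and 31.6 CPM in p16- libraries. The groups overlapped, and replicate 2 was the lowest of each. The log2 fold change was 0.09 with a 95% interval of -0.18 to 0.36 (adjusted p = 0.712). Zfp423 (ENSMUSG00000045333.15, chromosome 8, 87661810 to 87959595, minus strand) read 25.6, 26.7 and 24.3 CPM in p16+ libraries, against 20.0, 31.7 and 27.8 CPM in p16- libraries. The p16+ values lay within the p16- range, and the log2 fold change was -0.05 with a 95% interval of -0.35 to 0.25 (adjusted p = 0.857).

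Levels of the 3 C/EBP genes can be set side by side per length, as TPM, a share of all transcripts in the library after division by gene length. Cebpd averaged 326 ± 18.7 TPM in p16+ and 517 ± 35.8 TPM in p16- cells, Cebpb 233 ± 16.3 TPM in p16+ and 276 ± 58.3 TPM in p16- cells, and Cebpa 48.7 ± 7.63 TPM in p16+ and 45.8 ± 5.62 TPM in p16- cells. The order was the same in both groups. Of the summed TPM of the 3 genes, Cebpd made up 56.1%, 54.9% and 49.9% in p16+ libraries, against 58.4%, 63.9% and 63.3% in p16- libraries. Cebpa made up 7.86%, 6.85% and 9.35% in p16+ libraries, against 5.31%, 4.83% and 6.31% in p16- libraries. In neither gene did the shares of the groups overlap, with Cebpd's share lower and Cebpa's higher in all 3 p16+ libraries. Cebpb's shares overlapped, at 36.1%, 38.2% and 40.8% in p16+ libraries, against 36.2%, 31.3% and 30.4% in p16- libraries. A lower share of 1 gene raises the shares of the others, and the level of Cebpa itself did not pass (log2 fold change 0.09). These shares are a description without a test.

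Among the lipid genes, Lpl (ENSMUSG00000015568.16, chromosome 8, 68880491 to 68907448, plus strand) had the highest level. It encodes lipoprotein lipase, the secreted enzyme that frees fatty acids from circulating triglyceride. Lpl read 723, 714 and 837 CPM in p16+ libraries, against 1256, 842 and 1177 CPM in p16- libraries. The groups did not overlap, but p16- replicate 2 was close to p16+ replicate 3. Lpl fell by 30.6% (758 ± 68.6 CPM in p16+ and 1092 ± 219 CPM in p16- cells; log2 fold change -0.53, SE 0.12, 95% interval -0.79 to -0.27, adjusted p = 0.00618). Without p16- replicate 1 the log2 fold change was -0.41 and the adjusted p 0.0989.

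Cd36 (ENSMUSG00000002944.15, chromosome 5, 17781690 to 17888801, minus strand) encodes a fatty acid translocase that adipocytes share with macrophages and capillary endothelium. It read 45.0, 30.1 and 39.8 CPM in p16+ libraries, against 67.5, 44.0 and 55.2 CPM in p16- libraries. The groups overlapped, since p16+ replicate 1 was above p16- replicate 2. Cd36 fell by 0.54 on the log2 scale (38.3 ± 7.57 CPM in p16+ and 55.6 ± 11.8 CPM in p16- cells; SE 0.16, 95% interval -0.88 to -0.19, adjusted p = 0.0345). This was the least firm of the 5 calls: the adjusted p was 0.108 on leaving out p16+ replicate 2, and 0.0857 on leaving out replicate 3 of that group. It was 0.158 on leaving out p16- replicate 1, 0.0967 on leaving out replicate 3 of that group, and 0.0508 under upper-quartile scaling.

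Plin2 (ENSMUSG00000028494.12, chromosome 4, 86648386 to 86670060, minus strand) encodes perilipin 2, the coat protein of lipid droplets in most cell types. It read 59.9, 60.1 and 60.0 CPM in p16+ libraries, against 77.3, 71.8 and 74.0 CPM in p16- libraries. The p16+ libraries were nearly identical and all below the p16- libraries. Plin2 fell by 19.3% (60.0 ± 0.118 CPM in p16+ and 74.4 ± 2.77 CPM in p16- cells; log2 fold change -0.31, SE 0.07, 95% interval -0.47 to -0.15, adjusted p = 0.00759). Like Cebpd, it passed in each alternative that was run, and its difference was the smallest of the 5.

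Fabp4 (ENSMUSG00000062515.3, chromosome 3, 10204088 to 10208576, minus strand), which encodes the fatty acid chaperone of adipocytes and is a classical PPAR gamma target, read 35.1, 18.5 and 32.8 CPM in p16+ libraries, against 45.8, 13.0 and 29.4 CPM in p16- libraries. Replicate 2 was the lowest library in both groups. The highest p16- library was 3.54 times the lowest, and the highest p16+ library 1.89 times the lowest. The log2 fold change was -0.03 with a 95% interval of -1.53 to 1.47 (adjusted p = 0.983), so a change in either direction of the size seen in Pparg lies inside the interval. Leaving out single libraries moved it between -0.38 and 0.45.

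Adipoq (ENSMUSG00000022878.5, chromosome 16, 23146536 to 23158028, plus strand), which encodes the adipocyte hormone adiponectin, was nearly absent. Its raw counts were 15, 8 and 0 in p16+ libraries, against 59, 11 and 67 in p16- libraries. That is 0.413, 0.218 and 0 CPM in p16+ cells, against 1.45, 0.277 and 1.80 CPM in p16- cells. The groups overlapped through p16- replicate 2. The 0 reads of p16+ replicate 3 allow a level of up to 3 counts, or 0.0876 CPM, a limit that covers counting error only. The log2 fold change was -2.45 (SE 0.90, 95% interval -4.37 to -0.54), with an edgeR adjusted p of 0.0776. It passed with DESeq2 (adjusted p = 0.0226), with no filter on low counts (0.00763) and without p16- replicate 2 (0.0311).

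A 2-sided exact permutation test on each gene could not pass 0.05 with 3 libraries against 3, its smallest possible p being 0.1. Pparg, Cebpd, Lpl and Plin2 reached 0.1, Cd36 and Adipoq gave 0.2, and the remaining genes gave 0.4 to 0.9.

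**Figure D2:**
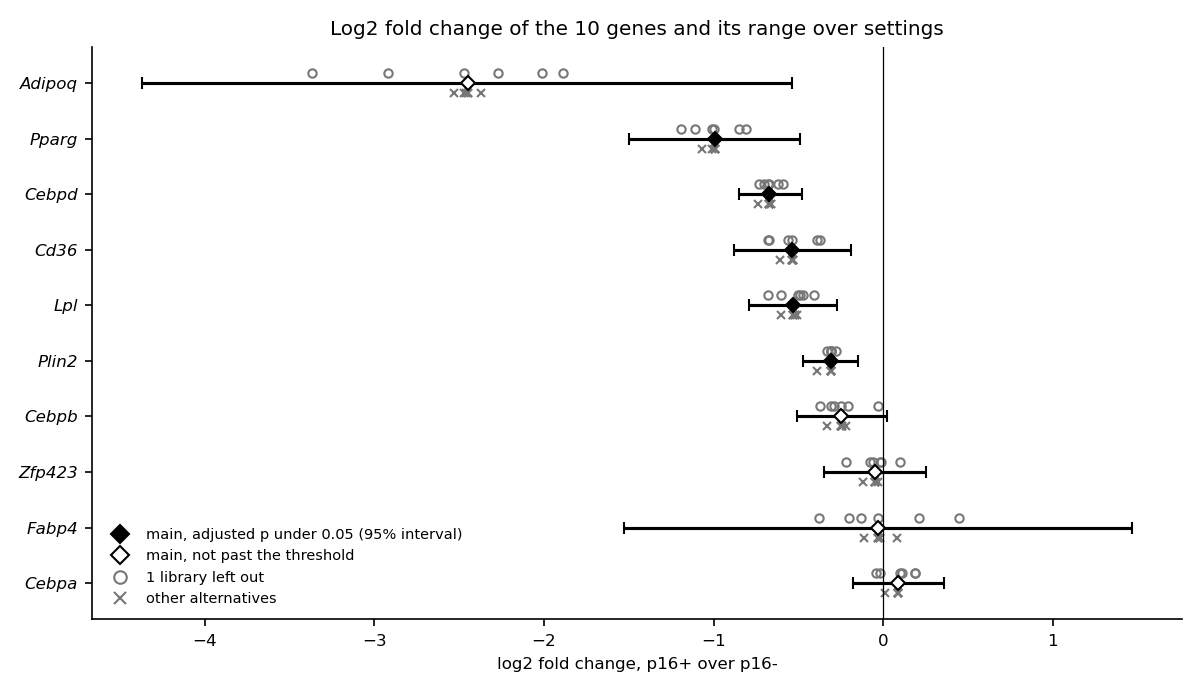
Log2 fold change of p16+ over p16- for each gene (horizontal axis), with a diamond for the edgeR estimate (filled where the adjusted p was under 0.05) and its 95% interval, circles for fits that leave out 1 library and crosses for the other alternatives. The estimates of Cebpd and Plin2 stay close together below 0, whereas the interval of Fabp4 runs from -1.53 to 1.47.

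Per length, the genes spanned a wide range of levels. The order between genes depends on the union exon length, which understates genes with long rare exons. That length was 10478 bases for Lpl, 3746 for Cebpd and 4489 for Fabp4, where it equals the whole annotated span. By CPM, Lpl stood above Cebpd in both groups (758 against 311 CPM in p16+ and 1092 against 493 CPM in p16- cells). In p16+ cells the order of mean TPM after Cebpd (326) was Lpl (284 ± 27.3), Cebpb (233 ± 16.3), Plin2 (67.2 ± 1.04), Cebpa (48.7 ± 7.63), Cd36 (41.9 ± 7.8), Fabp4 (25.2 ± 7.66), Zfp423 (17.9 ± 0.894), Pparg (4.54 ± 1.19) and Adipoq (0.594 ± 0.579). In p16- cells it was Cebpd (517), Lpl (409 ± 75.2), Cebpb (276 ± 58.3), Plin2 (83.3 ± 1.19), Cd36 (60.7 ± 11.3), Cebpa (45.8 ± 5.62), Fabp4 (25.5 ± 13.7), Zfp423 (18.7 ± 4.64), Pparg (9.05 ± 1.69) and Adipoq (3.34 ± 2.27). Cebpa and Cd36 stood in opposite order in the groups, and within p16+ cells they differed by less than their SD. Fabp4 and Zfp423 also differed by less than the spread of Fabp4 in both groups. Ranked by TPM among the 15903 genes, Cebpd stood at 422 in p16+ and 277 in p16- cells and Pparg at 10815 in p16+ and 8939 in p16- cells, so the C/EBP delta transcript was among the abundant ones and the PPAR gamma transcript was not.

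**Figure D3:**
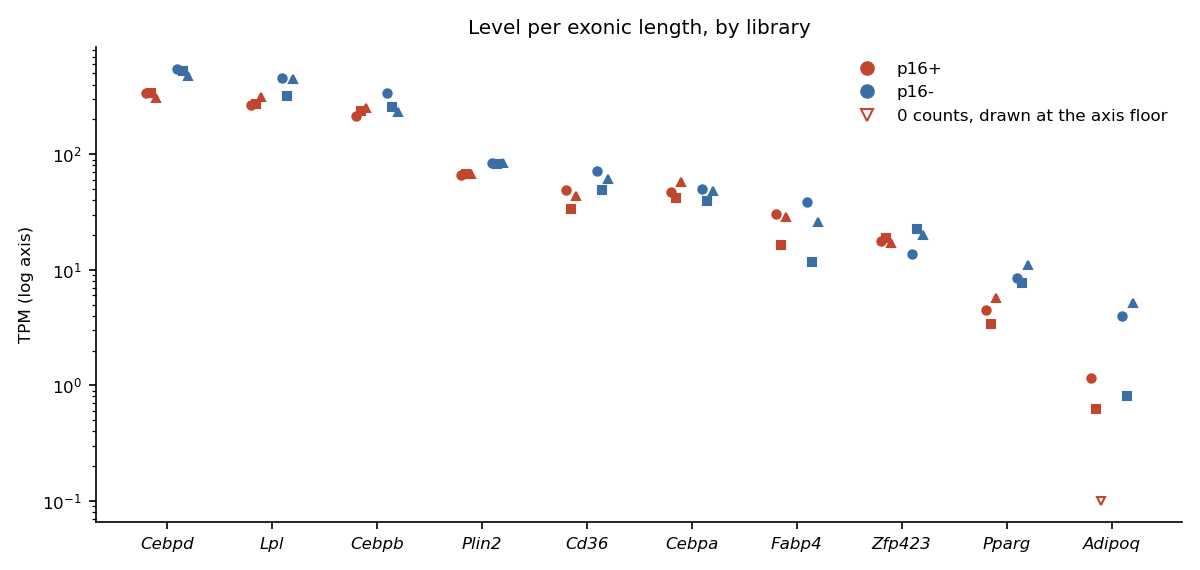
TPM of the 10 genes (log axis) in each p16+ and p16- library, one point per library; the open triangle at the axis floor is the Adipoq value of 0 in p16+ replicate 3. Cebpd, Lpl and Cebpb lie above 200 TPM in every library, and Adipoq lies lowest of the 10.

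Within p16- cells, replicate 1 was the highest library for 7 of the 10 genes and replicate 2 the lowest for 7, and within p16+ cells replicate 2 was the lowest for 5. By log2 fold change, Adipoq stood above 0.503% of all genes tested, Pparg above 4.62%, Cebpd above 8.65%, Cd36 above 11.1%, Lpl above 11.3% and Plin2 above 19.4%. Cebpb stood above 23.5%, Zfp423 above 44.4%, Fabp4 above 47.3% and Cebpa above 61.8%.

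Other genes of the pathway were taken from lists by role. Of 22 further activators of adipogenesis, all tested, 7 fell, 0 rose and 15 did not pass (median log2 fold change -0.21), where 8.04% of all genes tested fell and 8.69% rose. At an unadjusted p under 0.05 in edgeR 1 activator was higher, and DESeq2 called 0 higher. Ebf2, which encodes an early B cell factor, averaged 84.4 ± 9.43 CPM in p16+ and 141 ± 16.8 CPM in p16- cells (log2 fold change -0.74, adjusted p = 7.18e-05). Klf4, an immediate activator of Cebpb in cultured mouse preadipocytes, averaged 1393 ± 115 CPM in p16+ and 2035 ± 201 CPM in p16- cells (-0.55, adjusted p = 0.000491). The coactivator gene Ncoa1 (-0.57), the growth hormone and cytokine signalling factor Stat5b (-0.50) and the glucocorticoid-induced factor Klf9 (-0.42) also fell. Their adjusted p-values were 0.000358 for Ncoa1, 0.000543 for Stat5b and 0.00147 for Klf9.

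The 24 genes listed as repressors of adipogenesis moved both ways. Of 23 tested, 6 rose, 7 fell and 10 did not pass (median 0.03), where 8.69% of all genes tested rose and 8.04% fell. Runx2, the osteoblast master regulator, averaged 43.7 ± 5.3 CPM in p16+ and 22.7 ± 2.85 CPM in p16- cells (log2 fold change 0.94, adjusted p = 2.64e-05), and Nr2f2, an orphan nuclear receptor, 59.1 ± 4.43 CPM in p16+ and 42.4 ± 2.17 CPM in p16- cells (0.48, adjusted p = 0.00082). In the other direction, Wnt10b, a Wnt ligand that holds preadipocytes undifferentiated, averaged 7.36 ± 2.78 CPM in p16+ and 23.1 ± 0.96 CPM in p16- cells (-1.64, adjusted p = 3.52e-05). The forkhead factor gene Foxo1 (-0.71, adjusted p = 0.000107) and the noncanonical ligand gene Wnt5a (-0.80, adjusted p = 0.000431) fell too. The 13 calls became 8 on leaving out p16+ replicate 2, and 7 on leaving out replicate 3 of that group. Of these, 2 rose when p16+ replicate 3 was left out, 3 rose when p16- replicate 3 was left out, and 3 rose with library sizes alone. On leaving out p16+ replicate 2, 4 fell.

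In the list of 22 genes of fatty acid uptake and lipoprotein handling, 20 were tested, of which 3 rose, 1 fell and 16 did not pass (median 0.18). These 4 calls stand near the share of all genes tested that passed, 16.7%. Angptl4, a secreted inhibitor of lipoprotein lipase, read 257, 257 and 299 CPM in p16+ libraries, against 154, 143 and 142 CPM in p16- libraries. All p16+ libraries were far above all p16- libraries, the opposite of the order seen in Lpl itself (log2 fold change 0.89, SE 0.08, adjusted p = 2.01e-06). Vldlr, the very low density lipoprotein receptor gene, read 61.0, 63.5 and 62.4 CPM in p16+ libraries, against 92.5, 112 and 111 CPM in p16- libraries (-0.76, adjusted p = 1.17e-05). Cav1, the caveolin gene, averaged 417 ± 6.36 CPM in p16+ and 262 ± 37.1 CPM in p16- cells (0.67, adjusted p = 0.000109). Fabp5, a fatty acid binding protein of epidermis and macrophages, averaged 12.5 ± 2.21 CPM in p16+ and 7.65 ± 1.79 CPM in p16- cells (0.70, adjusted p = 0.0177). Its call was lost on leaving out p16+ replicate 2 (adjusted p = 0.104), and also p16- replicate 3 (0.0906). On leaving out replicate 1 or replicate 2 of the p16- group, 2 genes of the list fell.

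Of 21 genes of lipid droplets and triglyceride synthesis, 15 were tested, 2 fell and 13 did not pass (median 0.00). Over all genes tested 16.7% passed and 8.04% fell, so the count is near the background. Plin4, an adipocyte perilipin, read 1.32, 1.69 and 1.28 CPM in p16+ libraries, against 5.68, 3.61 and 2.80 CPM in p16- libraries, without overlap (log2 fold change -1.49, SE 0.33, adjusted p = 0.00424). Dgat2, which encodes a last-step enzyme of triglyceride synthesis, averaged 1.62 ± 0.0421 CPM in p16+ and 3.21 ± 0.293 CPM in p16- cells (-0.99, adjusted p = 0.0285), and its call was lost on leaving out any single library (adjusted p 0.0609 to 0.0993). The list's count was 1 on leaving out replicate 2 or 3 of the p16+ group, or replicate 1 or 3 of the p16- group.

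Of 11 lipolysis genes, 8 were tested, 2 fell, 1 rose and 5 did not pass (median -0.24). Mgll, which encodes the lipase that completes triglyceride breakdown, read 30.7, 19.3 and 22.5 CPM in p16+ libraries, against 54.2, 63.3 and 59.3 CPM in p16- libraries (log2 fold change -1.28, SE 0.13, adjusted p = 6.08e-06). G0s2, an inhibitor of adipose triglyceride lipase, averaged 9.53 ± 1.16 CPM in p16+ and 15.7 ± 2.14 CPM in p16- cells (-0.72, adjusted p = 0.00289). Lipa, the lysosomal acid lipase gene, averaged 125 ± 0.211 CPM in p16+ and 100.1 ± 9.29 CPM in p16- cells (0.33, adjusted p = 0.00978). These are 3 calls among 8 genes tested, and 16.7% of all genes tested passed.

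Of 14 fatty acid synthesis genes, all tested, 3 fell and 11 did not pass (median -0.05), where 16.7% of all genes tested passed and 8.04% fell. Elovl6, a fatty acid elongase gene, averaged 17.0 ± 0.842 CPM in p16+ and 29.2 ± 5.14 CPM in p16- cells (log2 fold change -0.78, adjusted p = 0.000461), and Acly, the ATP citrate lyase gene, 124 ± 6.33 CPM in p16+ and 166 ± 13.7 CPM in p16- cells (-0.41, adjusted p = 0.00201). Fads1, a fatty acid desaturase gene, fell by 0.28 on the log2 scale (adjusted p = 0.0257), a call lost on leaving out any single library but p16- replicate 1. Fasn, the fatty acid synthase gene, averaged 99.8 ± 4.75 CPM in p16+ and 100.3 ± 16.3 CPM in p16- cells and did not pass; it was chosen after its values were seen.

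**Figure D4:**
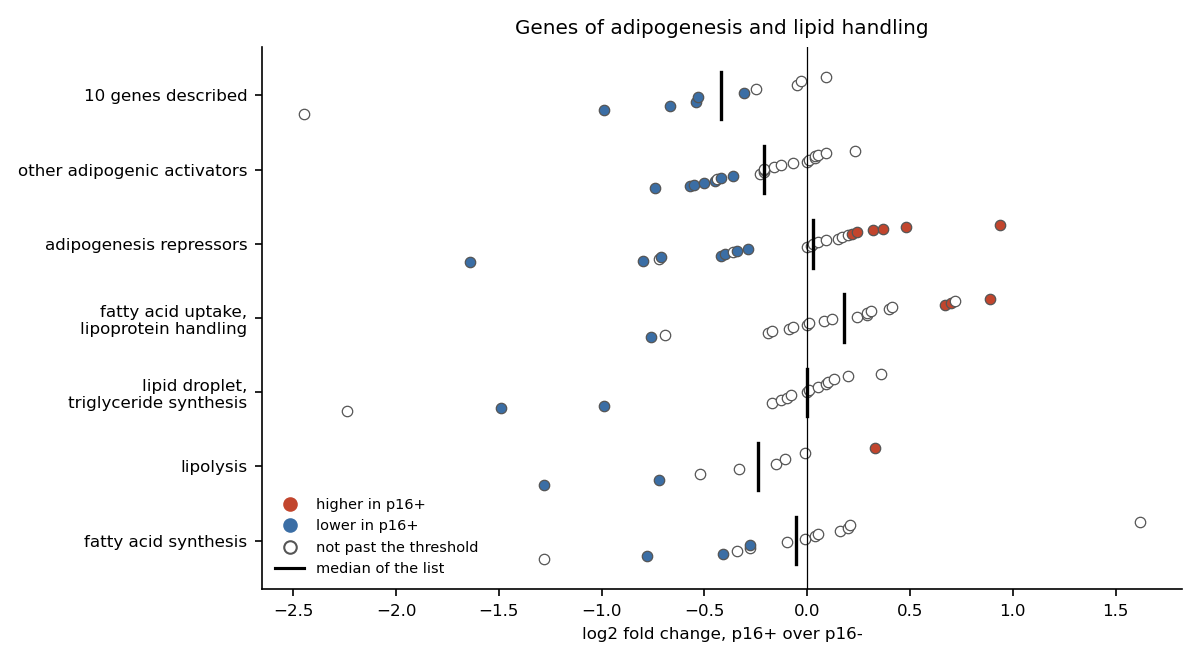
Log2 fold change of p16+ over p16- (horizontal axis) for the tested genes of the 10 and of the pathway lists, one dot per gene, coloured where the adjusted p was under 0.05, with a bar at each list's median. The 10 genes have a median of -0.42, and the repressor list has coloured dots on both sides of 0.

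Markers of cell types that the gate could hold were read beside these results. Of 16 markers of mature adipocytes, 11 (Lep, Retn, Cfd, Cidec, Cidea, Pck1, Adrb3, Thrsp, Aqp7, Adig and Ucp1) were under 1 CPM in every library, the highest value among them being 0.737 CPM. The 16 summed to 11.4 to 19.3 CPM in p16+ and 17.1 to 25.3 CPM in p16- libraries. Of the 7 tested, 1 fell (Plin4), where 8.04% of all genes tested fell. Plin1, the adipocyte lipid droplet gene, had counts of 35, 2 and 3 in p16+ libraries, against 145, 15 and 49 in p16- libraries (adjusted p = 0.14), and Cfd, the adipsin gene, had 0, 0 and 0 in p16+ libraries, against 20, 0 and 17 in p16- libraries. For Adipoq, Plin1, Cfd and Fabp4, the last of which is not among the 16, p16- replicate 2 was the lowest of the p16- libraries. Lipe (8.48, 6.43 and 7.96 CPM in p16- replicates 1, 2 and 3) shared this order, as did Aqp7 and Cidec, both under 1 CPM. The list as a whole did not. Plin4 was lowest in p16- replicate 3 (2.80 CPM) and Slc2a4 in p16- replicate 1 (4.57 CPM). Adig, Thrsp and Adrb3, all under 1 CPM, were also lowest in p16- replicate 1. Without p16- replicate 2, Adipoq, Cfd, Plin1 and Plin4 all passed as lower in p16+ cells, and without p16+ replicate 1 Plin1 and Plin4 did.

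**Figure D5:**
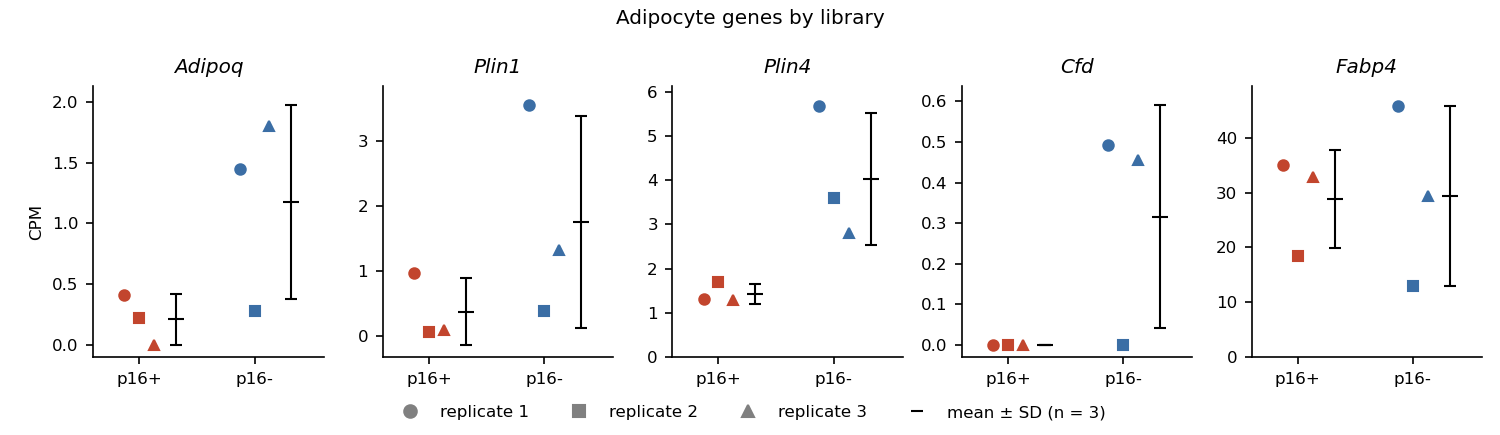
CPM of Adipoq, Plin1, Plin4, Cfd and Fabp4 (vertical axes) in each p16+ and p16- library, with symbols for the replicate number and bars for mean ± SD. Replicate 2 of the p16- group is at 0.277 CPM for Adipoq and 0 for Cfd, while replicates 1 and 3 of that group are higher in both.

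Of 14 adipocyte progenitor markers, all tested, 5 fell, 2 rose and 7 did not pass, where 8.04% of all genes tested fell and 8.69% rose. The 14 summed to 4363 to 4641 CPM in p16+ and 6185 to 6468 CPM in p16- libraries. Dpp4 and Pi16, which mark an early progenitor state, were among the 5 (log2 fold change -1.62 for Dpp4 and -0.91 for Pi16, adjusted p = 6.86e-08 for Dpp4 and 8.6e-06 for Pi16), as was Cd55 (-1.22, adjusted p = 1.59e-07), whereas Clec11a rose (0.82, adjusted p = 6.56e-06). Of 9 stromal fibroblast markers, 5 rose and 4 did not pass, where 8.69% of all genes tested rose. The smallest p-values were those of the collagen genes Col1a1, Col1a2 and Col3a1 and of Lum, all higher. The median log2 fold change of the 9 was 0.25, with 2 values negative. All 9 markers together summed to 155226 to 162719 CPM in p16+ and 93155 to 110534 CPM in p16- libraries, most of it from the collagen genes. Col3a1 averaged 69175 CPM in p16+ and 44919 CPM in p16- cells. Col1a1 averaged 37831 CPM in p16+ and 20414 CPM in p16- cells, and Col1a2 35656 CPM in p16+ and 20879 CPM in p16- cells.

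Of 14 macrophage markers, 7 rose and 7 did not pass, where 8.69% of all genes tested rose. The smallest p-values were those of Csf1r (log2 fold change 1.17; 15.1% of its exonic length overlaps a gene on the opposite strand), C1qc (0.88), Mertk (0.70) and Lyz2 (0.43). The 14 summed to 295 to 345 CPM in p16+ and 209 to 231 CPM in p16- libraries, and none was under 1 CPM in every library. Of 12 endothelial markers, 3 rose (Emcn, Pecam1 and Vwf), Tek fell (49.2 CPM in p16+ and 168 CPM in p16- cells) and 8 did not pass. The rising count was 1 without p16+ replicate 3. Over all genes tested, 8.69% rose and 8.04% fell. The median log2 fold change of the 12 was 0.71, with 2 values negative. The 12 summed to 197 to 216 CPM in p16+ and 287 to 319.6 CPM in p16- libraries, a sum in which Tek had the largest difference in CPM, and Gpihbp1, the capillary anchor of lipoprotein lipase, was at or below 0.564 CPM in every library. Of 11 tested muscle fibre markers, 0 passed in either direction in edgeR, 0 at an unadjusted p under 0.05 and 0 with DESeq2, and their list summed to 22.9 to 35.2 CPM in p16+ and 22.6 to 30.7 CPM in p16- libraries, with Acta1 averaging 8.76 CPM in the p16+ group, against 7.53 CPM in the p16- group (adjusted p = 0.646). Macrophages also express Lpl and Cd36. The part that other cell types play in the values of the 10 genes was not tested.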

How the data were processed

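RNA was sequenced from 6 libraries with an unstranded kit (TruSeq RNA V2), as 50 bp paired ends, per the labels' protocols. The authors deposited raw counts of read pairs per gene, 1 table per library. Per the submitters' processing notes, bcl2fastq, the aligner STAR (version 2.7.3a) and the genome build GRCm38.p6 were used. Per the file headers, counting used featureCounts 1.6.0 over exons of GENCODE vM21.

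From these counts, edgeR 4.0.16 (R 4.3.3, limma 3.58.1) fitted p16+ against p16- on all 15903 genes kept by filterByExpr, with TMM scaling, robust quasi-likelihood tests and Benjamini-Hochberg adjustment over all of them, at a threshold of 0.05. Printed CPM are TMM-scaled. TPM were computed from the counts and the deposited union exon length, which understates genes with long rare exons. The exact permutation test used log2 CPM with a prior count of 2. The fitting was tested on simulated data. The depth of 35253406 to 39103909 counts per library puts 3 counts at 0.0767 to 0.0851 CPM before TMM scaling. No library pair of a group agreed within sampling noise.

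Alternatives were DESeq2 1.42.0, 3 other scalings, 2 other filters, a replicate block and leaving out each library. The genes named outside the 10 are, for each pathway list, up to 5 called genes with the smallest p (for cell type lists, up to 4), or the most abundant gene where none passed, the sort genes, and markers near 0. Fasn, Plin1, Lipe and Slc2a4 lie outside that rule and were chosen after their values were seen. The 10 genes and the lists were chosen with earlier results of these data known.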

Additional observations from a re-analysis of the deposited data

How the results depend on the processing

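Of 129 log2 fold changes of the 10 genes under the alternatives, 112 kept their direction and their side of the threshold, 7 no longer passed, 4 newly passed and 6 changed sign, all of them in Cebpa, Zfp423 and Fabp4, which did not pass with either sign. Leaving out single libraries gave log2 fold changes of -1.19 to -0.81 for Pparg, -0.68 to -0.41 for Lpl, -0.68 to -0.37 for Cd36, -3.37 to -1.89 for Adipoq, -0.04 to 0.19 for Cebpa, -0.22 to 0.10 for Zfp423 and -0.38 to 0.45 for Fabp4, and 3 to 6 of the 10 genes called, all lower. It gave 7 to 12 called repressors, 1 to 3 lipid droplet genes, 1 to 4 mature adipocyte markers and 2 to 5 endothelial markers. Cd36 at -0.54 missed the threshold with upper-quartile scaling, while Adipoq passed with DESeq2 (-2.47) and with no filter (-2.46), and Cebpb passed with no filter (-0.25). With no filter, 4 lipid droplet, 5 fatty acid synthesis and 4 mature adipocyte genes were called, and DESeq2 called 2 mature adipocyte markers; the cause was not tested. Library sizes alone moved the median of all genes to -0.08, and under the stricter filter Adipoq was not tested. Among 546 values of the named genes outside the 10, 518 kept direction and side, 16 no longer passed, 11 newly passed and 1 changed sign (Acta1, which did not pass and ran from -0.19 to 0.44 on leaving out single libraries). Whether same-numbered p16+ and p16- libraries share an animal is not stated in the labels; their deviations from the group means correlated at 0.028, 0.082 and -0.005, and the numbers were not taken as pairs. With the replicate block, the log2 fold change of Fabp4 was 0.08, 1605 genes were higher and 1509 lower, and 5 of the 10 genes, 4 lipid droplet, 5 fatty acid synthesis and 2 mature adipocyte genes were called. At this depth Adipoq, Plin1 and Cfd rest on few reads, and the intervals of Fabp4 and Adipoq leave large changes undecided.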
